A study of Apis mellifera with 13 samples.

Results

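A group of 34 genes, of 13414 listed, had lower values in the antennae of the older in-hive workers than in those of the younger ones, with no overlap between libraries. They were chosen by that difference. In the table of VSH and NVS libraries, a gene was taken when its mean over the 8 libraries was at least 50, when its highest value in libraries 3 and 4 of both phenotypes lay below its lowest value in libraries 1 and 2, and when the mean of the 4 younger libraries was at least 1.3 times that of the 4 older ones. Odorant receptors, odorant-binding proteins, CPR cuticle proteins and cytosolic ribosomal proteins would have been left out by their symbols, but no gene was removed this way. Of the 8133 genes with a mean of at least 50, these 34 are 0.418%, and 282 genes, or 3.47%, were lower in the older libraries without overlap at any fold. The older against younger contrast is therefore described below without a test, and the genes were read out in forager and nurse antennae, which had no part in choosing them.

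RNA was sequenced from antennae of Apis mellifera workers, of which only the flagellum was taken. VSH bees, seen opening or emptying brood cells parasitised by the mite Varroa destructor, and NVS bees, marked nestmates never seen doing so, emerged from brood of 1 donor colony selected for Varroa sensitive hygiene and lived in the same observation hive. The older libraries held VSH bees of 12.5 and 17 days and NVS bees of 12.25 and 17.5 days (mean ages), and the younger libraries VSH bees of 7.5 and 9.75 days and NVS bees of 7.5 and 9.5 days. Foragers (FOR, 2 libraries) and nurses (NUR, 3 libraries) both came from a set of 3 standard hives. The foragers were caught as they came home carrying pollen and the nurses while tending larvae. Neither were of known age, so that task and age cannot be told apart in them. The hive of each library was not known here. Each library pooled the antennae of several bees, which makes the library the replicate.

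Honey bee workers pass through a sequence of tasks as they age, with brood care and other work inside the nest first and foraging outdoors last. The antenna carries olfactory, gustatory, hygrosensory and mechanosensory neurons, which sit with their support cells beneath a cuticle that is deposited around adult emergence. Antennal RNA therefore comes from neurons, support cells, epidermis, glia, blood cells and tracheae at once, and in such whole-organ samples fewer cells of a type and less RNA per cell cannot be told apart.

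Few of the 34 genes have a name. The files name 4 of them: Blop, the blue-sensitive opsin; CYP6AS3, a cytochrome P450; Gli, gliotactin, a protein of septate junctions; and dp, dumpy, a very large protein of the apical extracellular matrix in Drosophila. The study's gene tables, which list genes picked on these same libraries, describe LOC410246 as a netrin receptor UNC5B-like protein, LOC550998 as a chondroitin 4-O-sulfotransferase and LOC725930 as a retinol dehydrogenase 12-like protein, and pair LOC726864 with the fly gene CG2837. They list dp as well. The other 26 carry neither a name nor a description in the sources used here and appear by their NCBI symbol alone. In the RefSeq annotation Amel_HAv3.1, 28 are protein coding, LOC102654200 is a long non-coding RNA and 5 had no match. The 35 genes next to a matched one in that annotation, with a mean of at least 50, had a median ratio of younger to older values of 1.04, and 0 of them belonged to the group. Beside LOC410246 lies a second netrin receptor gene, unc5-1, with a ratio of 0.860.

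All 34 genes had values in every library of both tables and passed the filters on low values. Their means over the 8 libraries spanned 65.0 to 29193 normalised pseudo-counts, with a median of 556, and 11 exceeded 1000. A pseudo-count is a read count scaled to a common library size, not divided by gene length, so that levels are compared between libraries and not between genes. The ratio of the younger to the older mean ran from 1.305 to 2.88 with a median of 1.41, against a median of 1.003 over the 8133 genes. It was at least 1.5 for 8 genes and under 1.4 for 16. The lowest younger value exceeded the highest older value by a median factor of 1.04, so that for most genes the separation was narrow. Just inside the fold of 1.3 stood dp (1.31), LOC724907 (1.305) and LOC727405 (1.305), and just outside it LOC410070 (1.296), alpha-Man-IIb (1.295) and LOC552707 (1.292).

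Not all of the 34 genes declined at every age. Median values relative to each gene's own mean lay above 0 on the log2 scale at both younger ages and below 0 at both older ages, in VSH and in NVS bees (plot by mean age). Only LOC725930, LOC552190 and LOC550998 were lower at every successive age in both phenotypes, while 13 genes were so in VSH bees and 8 in NVS bees. The rule already fixes the step from library 2 to library 3, so these counts depend only on the order within each side. They were not set against a share over all genes. The median ratio of younger to older was 1.38 within VSH libraries and 1.49 within NVS libraries, and 19 genes had the larger ratio in NVS. The lowest of the 8 values was that of NVS3 for 16 genes, NVS4 for 9, VSH3 for 5 and VSH4 for 4. Age and anything else that set libraries 3 and 4 apart from libraries 1 and 2, such as collection or preparation, cannot be told apart.

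**Figure D1:**
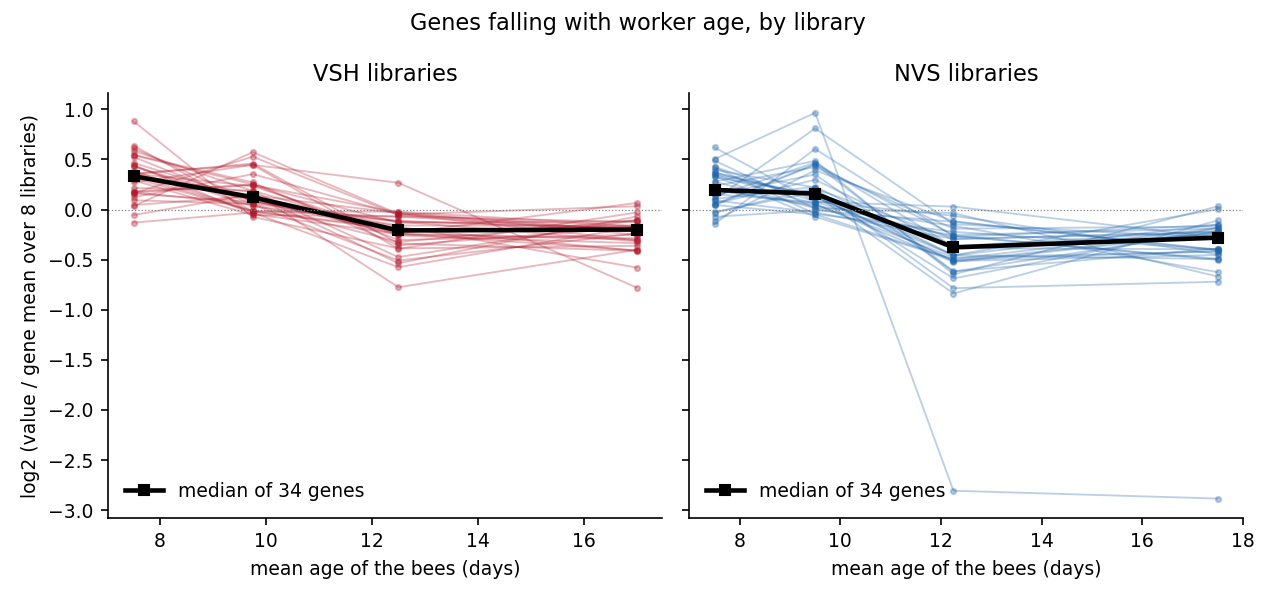
Values of the 34 genes by the mean age of the bees in each library, in VSH (left) and NVS (right) libraries. The y axis is the log2 of a gene's value over its mean in the 8 libraries, each thin line is 1 gene, squares join the medians, and the line that drops below -2.5 in NVS bees is LOC726864, with 11.3 and 10.7 pseudo-counts in NVS3 and NVS4.

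Blop had 63.6, 64.8, 48.3 and 50.5 pseudo-counts in the older libraries VSH3, VSH4, NVS3 and NVS4, against 153, 79.1, 109.6 and 96.9 in the younger libraries VSH1, VSH2, NVS1 and NVS2. The younger mean was 1.93 times the older one, with VSH1 the highest library. Forager antennae had 72.9 and 83.4 (FOR2 and FOR3), against 124, 208 and 142 in nurses (NUR1, NUR2 and NUR3). Every forager value thus lay below every nurse value, but the difference of -0.98 ± 0.33 on the log2 scale (limma, SE, 2 against 3 libraries) did not pass the adjusted threshold of 0.05 (adjusted p = 0.314). Opsins bind a retinal chromophore, and retinol dehydrogenases interconvert retinol and retinal. Whether LOC725930, described only by its likeness to such an enzyme, acts on retinoids or has a link to Blop was not tested. LOC725930, the retinol dehydrogenase 12-like gene, had 339.8, 303, 336 and 284 in the older libraries, against 555, 428, 564 and 405 in the younger ones. It had 482 and 417 in foragers, against 626, 1662 and 774 in nurses, where NUR2 stood well above the other libraries (-1.05 ± 0.39, adjusted p = 0.342).

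Blop was not accompanied by the other phototransduction genes measured. Of the 4 genes of a photoreceptor list with a mean of at least 50 (Blop, the scaffold gene inaD, the adhesion gene chp and the arrestin gene Arr2), 3 had a lower mean in the older libraries, but only Blop separated without overlap. The summed list ran from 5723 to 8145 pseudo-counts in the older libraries, against 6381 to 7755 in the younger ones. The long-wavelength opsin genes Lop1 and Lop2 were at most 15.7 in any of the 13 libraries.

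Genes of cell guidance, cell junctions and the apical matrix made up another part of the annotated members. LOC410246, the UNC5B-like receptor, belongs to a family that steers growing axons away from netrin. It had 552, 485, 392 and 477 pseudo-counts in the older libraries, against 634, 667, 716 and 585 in the younger ones. Foragers had 314 and 377, against 697, 1450.2 and 959 in nurses, and the lowest nurse library was well above the highest forager library. The difference was -1.52 ± 0.30 on the log2 scale, with an adjusted p of 0.141 in limma. LOC550998, a sulfotransferase that acts on chondroitin chains of proteoglycans, had 388, 355, 349.8 and 309.6 in the older libraries, against 516, 404, 547 and 396 in the younger ones. It had 444 and 326 in foragers, against 692, 1046 and 806 in nurses (-1.13 ± 0.23, adjusted p = 0.143). The forager and nurse values of both genes were clear of each other, so that leaving out any single library could not turn the sign.

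The dp gene, whose Drosophila product anchors epithelia to the cuticle, had 1054, 1049, 959 and 1010.1 in the older libraries, against 1585, 1247, 1149.9 and 1363 in the younger ones. Its values were close within foragers, at 1202 and 1213, and spread in nurses, at 1997, 6149 and 2169 (-1.31 ± 0.45, adjusted p = 0.321). NUR2 stood far above the other nurse libraries, and without NUR2 the difference shrank to -0.78 while its adjusted p reached 0.0429 in limma. Gli, needed for the septate junctions that seal epithelia in Drosophila, had 773, 737, 648 and 705 in the older libraries, against 893, 870.1, 916 and 1159 in the younger ones. It had 977 and 1104 in foragers, against 1245, 1954 and 1305 in nurses (-0.50 ± 0.21, adjusted p = 0.384).

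**Figure D2:**
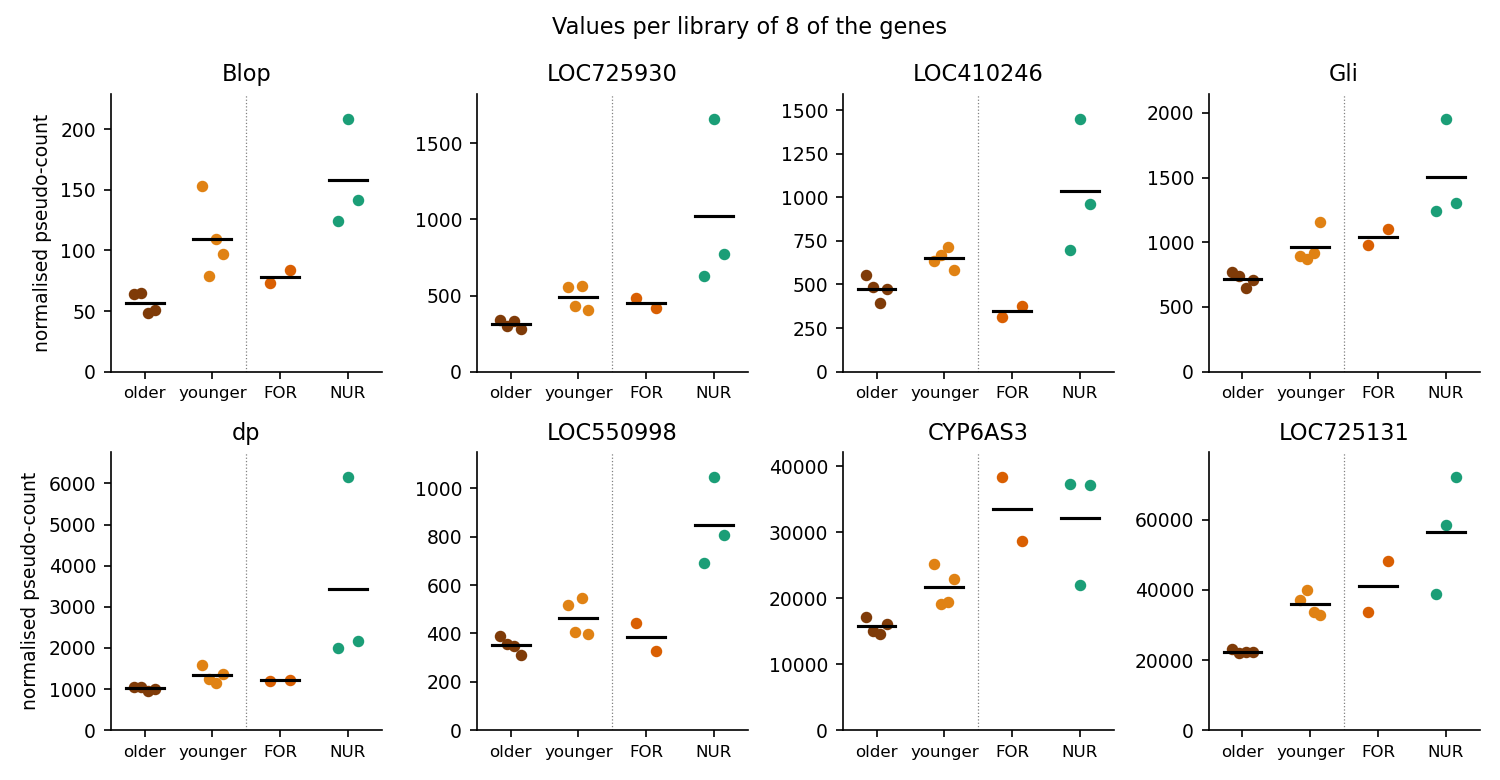
Normalised pseudo-counts of 8 of the genes in each library: the 4 older and 4 younger VSH and NVS libraries left of the dotted line, and the 2 FOR and 3 NUR libraries right of it. Points are libraries and bars are group means, the 2 tables were normalised separately so that values are compared only on the same side of the dotted line, and every FOR value lies below every NUR value in all but CYP6AS3 and LOC725131, as in 18 of the 34 genes and 16.5% of all genes.

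Genes of related function were counted over lists. Of 36 cell adhesion and axon guidance genes with a mean of at least 50, 23 had a lower and 13 a higher mean in the older libraries, with a median ratio of younger to older of 1.09, and 3 were lower in the older libraries without overlap, LOC410246 among them, where 3.47% of all genes were. Among 17 genes of cuticle and chitin, some CPR genes included, 8 were lower and 9 higher in the older libraries. Among 8 basement membrane and collagen genes, 7 were lower and 1 higher, with a median ratio of 1.17 and 0 of the 34 genes among them. In foragers against nurses, 44 of 49 adhesion and guidance genes had a negative and 5 a positive difference, with a median of -0.56, and 24 of 31 cuticle genes were negative and 7 positive. None of the adhesion, guidance or cuticle genes passed the adjusted threshold of limma in that comparison, and at an unadjusted p under 0.05, 22 adhesion and guidance genes and 7 cuticle genes were lower and 1 and 1 higher, where 6.82% of all genes were lower and 6.18% higher. All 9 basement membrane and collagen genes tested were negative, with a median of -1.72, 7 of them at an unadjusted p under 0.05 and 1 called lower after adjustment. The lists were drawn up with earlier results of these data known.

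CYP6AS3, a P450 of a bee family known for handling plant flavonols, had 17212, 15016, 14524 and 16139.7 pseudo-counts in the older libraries, against 25266, 19098, 19480.4 and 22983 in the younger ones, or 15723 ± 1201 against 21707 ± 2947 (SD, n = 4 each). Foragers had 38337 and 28628, against 37363, 22000.1 and 37135 in nurses, so that the groups overlapped and the difference of 0.084 ± 0.27 had no settled sign: it was -0.13 without FOR2 and -0.17 without NUR2. The CYP6AS genes are close copies of one another, and how reads shared between them were counted could affect each value. Its relatives CYP6AS4, CYP6AS7, CYP6AS11 and CYP6AS13 had ratios of younger to older between 1.04 and 1.14, and CYP6AS8 had a ratio of 0.56. Over 21 P450 genes with a mean of at least 50, 15 were lower and 6 higher in the older libraries, and in foragers against nurses 10 of 28 were negative and 18 positive, with 0 called and, at an unadjusted p under 0.05, 3 lower and 3 higher.

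LOC726864 had the widest range of the 34. It had 94.6, 45.9, 11.3 and 10.7 in the older libraries, against 94.9, 107, 111 and 154 in the younger ones. The 2 older NVS libraries were far below all others, whereas VSH3 missed the lowest younger library, VSH1, by a factor of only 1.002, and the ratio of younger to older was 12.1 in NVS but 1.44 in VSH. Its difference between foragers and nurses was also the most negative of the 34, with 26.4 and 18.01, against 119.9, 636 and 229 in nurses. The difference of -3.51 ± 0.67 on the log2 scale had the smallest adjusted p of the group (0.135), and without NUR2 it was -2.87 with an adjusted p of 0.0484. Its fly counterpart CG2837 is given no role in the sources used here.

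Among the genes without annotation, LOC725131 had the widest gap between the older and younger libraries. It had 23089.8, 21946, 22354 and 22162 in the older libraries, against 37259.5, 40117, 33632 and 32988 in the younger ones, or 22388 ± 497 against 35999 ± 3328 (SD, n = 4 each). The lowest younger value was 1.43 times the highest older one. In foragers it had 33797 and 48285, against 38892, 58644 and 72126 in nurses, with an overlap between the groups (-0.44 ± 0.29, adjusted p = 0.573). LOC412299 was the next best separated, with 597, 618, 537 and 523 in the older libraries, against 1073, 876, 841 and 828 in the younger ones. Its forager values of 899 and 1368 also overlapped the nurse values of 1595, 1210.3 and 2046. These 2 genes, with the widest gaps between ages, were thus not those with the largest difference between foragers and nurses.

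LOC552190 combined a decline at each age with a nurse library far from the rest. Along the ages its values were 5041, 3196, 2848 and 2434 in VSH bees, and 3928, 3270.2, 3158 and 2038 in NVS bees. Foragers had 3015 and 2689.7, against 4487, 45669.7 and 6729 in nurses, so that the fitted difference of -1.97 ± 0.88 carried a large error and an adjusted p of 0.411. Without NUR2 it was -0.95 with an adjusted p of 0.0772. LOC100578728 had 74.2, 95.8, 92.04 and 66.8 in the older libraries, against 155, 117, 118 and 106 in the younger ones. It had 109 and 126 in foragers, against 244, 440.1 and 219 in nurses, again without overlap (-1.28 ± 0.35, adjusted p = 0.235). LOC408299 had 494, 559, 447 and 474 in the older libraries, against 924, 763, 797 and 602 in the younger ones. Its forager values were 796 and 519, against 1190.4, 1519 and 990.5 in nurses (-0.92 ± 0.25, adjusted p = 0.229), and the groups were apart here too.

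The remaining genes of the 20 with the largest ratios had differences between -0.88 and 0.10 on the log2 scale between foragers and nurses. LOC409172 (1.43 times higher in the younger libraries) had 2377 and 2413 in foragers, against 2816, 3708 and 4424 in nurses. LOC725453 had 3409 and 4561 in foragers, against 4445, 6314 and 6011 in nurses, which overlapped. LOC552477, LOC102655085 and LOC413204 had every forager value below every nurse value, with differences of -0.53, -0.66 and -0.22. LOC100576982, LOC102655408 and LOC409777 overlapped, with differences of -0.88, -0.14 and -0.12, and only for LOC102655408 did the sign turn, to 0.051 without FOR2 and 0.099 without NUR3. The long non-coding RNA LOC102654200 had 470.5 and 1339.8 in foragers, against 922, 507 and 925 in nurses: its 2 forager libraries held the lowest and the highest value of the 5. LOC102655100 (0.084) and LOC102656934 (0.10) had small positive differences, the first of which was -0.039 without NUR2. Just inside the fold, LOC724907 was -0.49 without overlap and LOC727405 was -0.010 with overlap, and LOC727405 was 0.062, 0.058 and 0.11 without FOR3, NUR2 and NUR3.

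The other 8 genes, named here, like Gli and LOC550998, after their values were seen, had ratios of younger to older between 1.32 and 1.36. LOC411599 was the clearest of them, with 2063 and 2666 in foragers, against 3283, 4828 and 4333 in nurses (-0.80 ± 0.19, adjusted p = 0.188). LOC409306 had 5104 and 4484 in foragers, against 5589.6, 7118 and 6755 in nurses, and LOC552725 had 1266 and 1108, against 1328, 1631 and 1315, both without overlap. LOC409981 (-0.31), LOC102656699 (-0.54) and LOC100578017 (-0.12, and 0.046 without FOR2) overlapped. LOC724780 (0.27) and LOC102656840 (0.42) had the largest positive differences of the 34. LOC102656840 was the one gene with every forager value above every nurse value, at 253 and 278 in foragers, against 234, 144 and 228 in nurses.

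**Figure D3:**
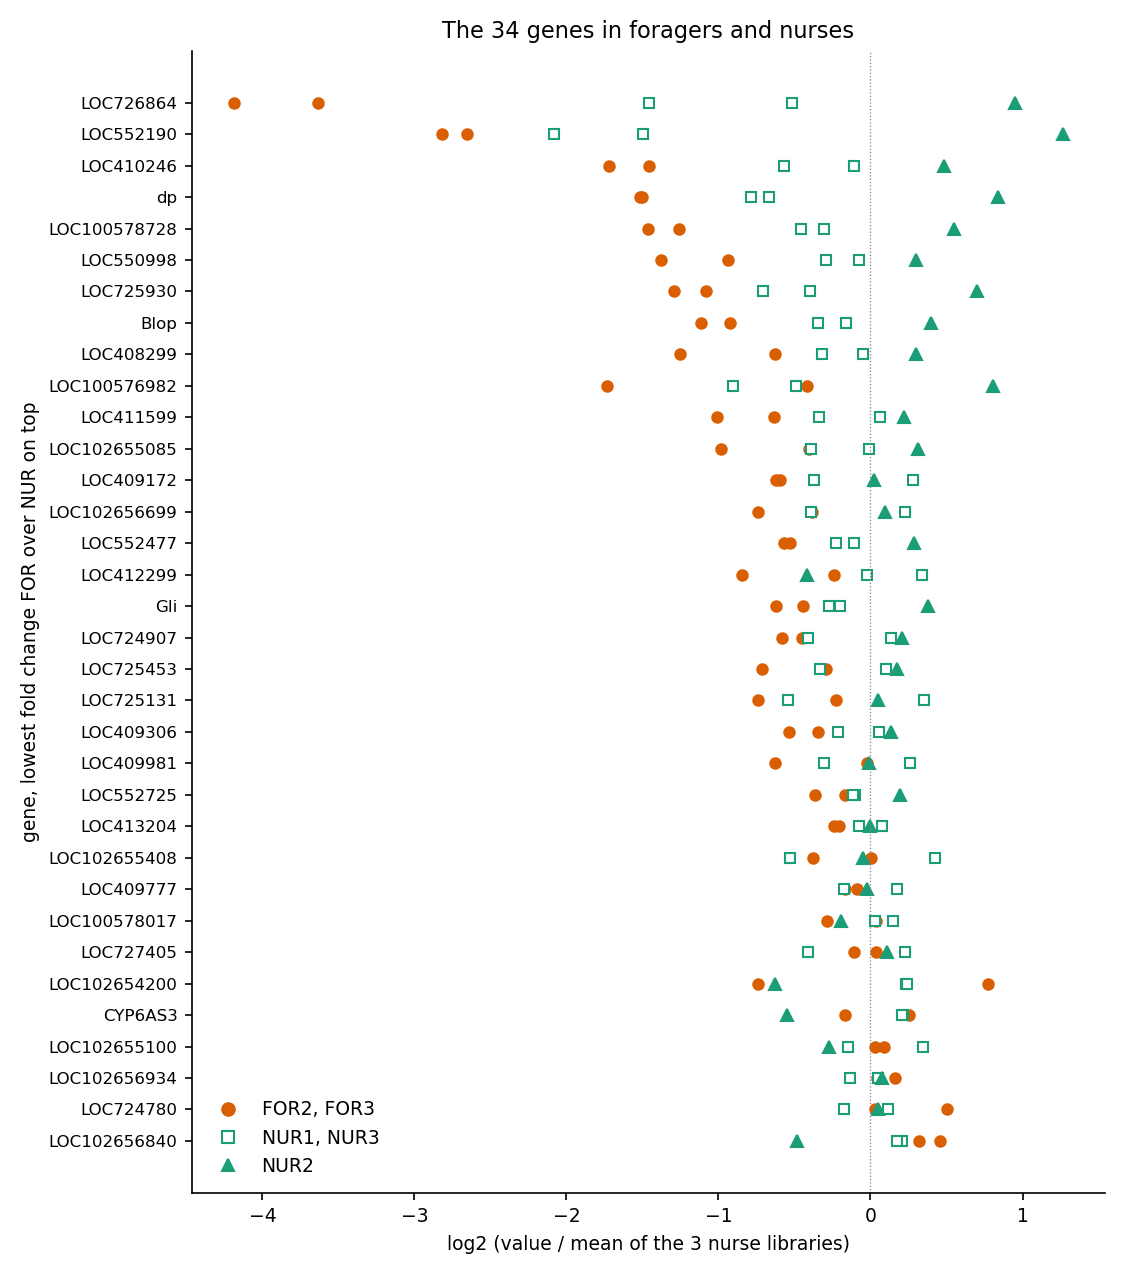
The 34 genes in the 2 FOR libraries (filled circles) and the 3 NUR libraries (open squares, and a triangle for NUR2), as the log2 of the value over the mean of the nurse libraries, with the lowest forager to nurse difference on top. In 18 genes both circles lie left of all nurse symbols (16.5% of all genes) and in 1 gene, LOC102656840, right of them (16.1%), and NUR2 is the highest library in 18 (27.2% of all genes).

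The comparison of foragers with nurses asked whether the genes lower in older in-hive workers were also lower in bees that had left nest duties. No gene of the 34 passed the adjusted threshold of 0.05 in limma in either direction, where 0.0383% of 10436 genes were called lower and 0.0575% higher in foragers. The study's own count test in edgeR reported many more genes differing between foragers and nurses, so a gene not called here can be listed there. LOC725930, under its gene number, is among the redox genes that the study reports as lower in foragers. At an unadjusted p under 0.05, 14 of the 34 were lower in foragers (6.82% of all genes were) and 0 were higher (6.18%). Without a variance trend in limma, 9 were lower at that level and again 0 were called after adjustment. The 14 were Blop, dp, Gli, LOC410246, LOC550998, LOC725930, LOC726864, LOC100578728, LOC408299, LOC409172, LOC409306, LOC411599, LOC724907 and LOC725453, and they include the 7 annotated genes other than CYP6AS3. Of these 7, the 5 in the study's gene tables (dp, LOC410246, LOC550998, LOC725930 and LOC726864) stand there because they were picked on these libraries, so that their presence among the 14 is no independent evidence. Both forager values lay below all nurse values in 18 of the 34, where 16.5% of all genes did so, and above them in 1, where 16.1% did.

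The fold changes lay mostly on the lower side. The difference of foragers from nurses was negative for 28 of the 34 genes (49.9% of all genes were) and positive for 6 (50.1%). Its median was -0.49 on the log2 scale, with quartiles of -0.91 and -0.13, against 0.00037 over all 10436 genes. Turning the rule round gave 122 genes higher in the older libraries, of which 82 were positive and 40 negative in foragers against nurses, with a median of 0.23. The 247 tested genes that were lower in the older libraries without overlap but by less than 1.3 times had a median of -0.12, with 188 negative and 59 positive. At an unadjusted p under 0.05, 48 of those 247, or 19.4%, were lower in foragers. These shares and medians describe the lists, since no test across a list was made.

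**Figure D4:**
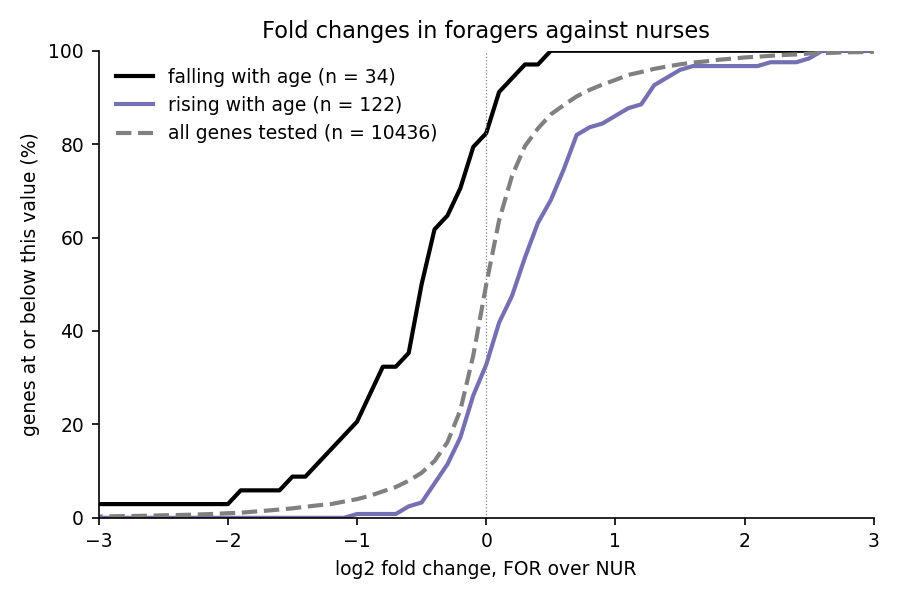
Share of genes (y axis, percent) at or below a given log2 fold change of FOR over NUR (x axis), for the 34 genes falling with age, the 122 genes rising with age and all 10436 genes tested. The curve of the 34 genes lies left of that of all genes, with a median of -0.49, and the curve of the 122 genes lies right of it, with a median of 0.23.

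One nurse library stood apart in this table. On the first principal component, which held 55.7% of the variance, NUR2 scored 46.4, against 1.25 for NUR1, 0.442 for NUR3, -20.9 for FOR2 and -27.2 for FOR3. NUR2 was the highest library for 18 of the 34 genes (52.9%), against 27.2% of all genes, and FOR2 the lowest for 16 (47.1%), against 20.5%. Without NUR2, 30 of the 34 differences were negative, their median was -0.38, and dp and LOC726864 were called. Calls also rose over all genes, to 85 of 10309 without NUR2 from 10 of 10436 with it. Blood cell genes moved with the same groups: all 6 genes of a haemocyte list had negative differences, and their sum ran from 2847 to 3558 in foragers, against 4693 to 6077 in nurses. Their part in the differences of the 34 genes was not tested. Between ages the same sum ran from 2133 to 2606 in the older libraries, against 1983 to 3211 in the younger ones, and overlapped.

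Markers of the antenna itself were present throughout. The 9 antennal marker genes, among them odorant-binding protein and chemosensory protein genes, summed to between 907336 and 1058430 pseudo-counts in the older libraries, against 811650 to 880359 in the younger ones, without overlap and with all 9 means higher in the older libraries. The sum rests largely on abundant genes such as Obp2, with means of 471044 in the older and 423779 in the younger libraries. Singly, 2 of the 9 were higher in the older libraries without overlap, and Or2 had a ratio of younger to older of 0.9996. The part of these markers in the lower values of the 34 genes was not tested. Muscle genes, at 2971 pseudo-counts in VSH4 against at most 453 in the other VSH libraries, and fat body genes, at 4874 in VSH4, set that library apart. VSH4 was the lowest library for 4 of the 34 genes, and by the rule no older library could be the highest for any of them. The part of the muscle and fat body genes in the values of the 34 genes was not tested.

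Within the older side of the age split, the 17 and 17.5 day libraries were compared with the 12.5 and 12.25 day libraries, and within the younger side the 9.75 and 9.5 day libraries with the 7.5 day libraries, in 1 fit with phenotype as a term. The rule treats both libraries of a side alike, so neither contrast chose the genes, but each rests on 2 libraries per age. Both contrasts use values that the rule also used, and its demand for no overlap between sides limits the spread within a side. The shares over all genes, which met no such demand, are therefore not a like-for-like measure for either contrast. Between the 2 oldest ages, 13 of the 34 genes were lower (50.8% of all genes were) and 21 higher (49.2%) at the later age, with a median of 0.034, but without NVS3 the direction turned, to 20 lower and 14 higher with a median of -0.017, the median was 0.12 without VSH3, and the number lower ran from 12 to 20 as single libraries were left out. None of the 34 was called, where 0.0294% of 10204 genes were called lower and 0.0784% higher. At an unadjusted p under 0.05, LOC552190 was lower (-0.43, adjusted p = 0.206 in limma) and LOC102655408 higher (0.43, adjusted p = 0.363), which is 1 of 34 each, against 6.12% and 7.41% of all genes. Without a variance trend 2 were lower and 1 higher at that level and 0 were called. The 2 libraries of the later age lay below both of the earlier age in 5 genes and above them in 5, where 20.9% and 20.1% of all genes did.

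Between the 2 youngest ages, 20 genes were lower (49.9% of all genes were) and 14 higher (50.1%) at the later age, with a median of -0.074, which moved to -0.017 without VSH1 (18 lower) and to -0.21 without NVS2 (26 lower). No gene of any kind was called in either direction (0% lower and 0% higher). At an unadjusted p under 0.05 in limma, 6 of the 34 were lower, against 2.54% of all genes, and 1 was higher, against 2.28%. The rule set no upper limit on the younger values, so here too the counts and the shares are not like for like. The 6 were LOC552190 (-0.46), LOC725930 (-0.43), LOC550998 (-0.41), LOC409172 (-0.37), LOC408299 (-0.34) and LOC409306 (-0.29), and the higher one was LOC102655100 (0.41). Without a variance trend 5 were lower and 0 higher at that level and 0 were called. Both later libraries lay below both earlier ones in 10 of the 34, where 14.4% of all genes did, and above them in 0, where 13.8% did. Of the 6, 5 (all but LOC552190) were also among the 14 of the 34 lower in foragers at an unadjusted p under 0.05. In foragers 6.82% of all genes were lower at that level. Neither list was adjusted, the list by age comes from libraries that also chose the 34 genes, and their overlap was not tested.

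VSH and NVS bees were compared over all ages. None of the 34 genes was called, where 0% of 10204 genes were called lower and 0.0392% higher in VSH, and 0 of the 34 reached an unadjusted p under 0.05 in either direction, where 5.43% of all genes were lower and 5.73% higher, and both counts were also 0 without a variance trend. Genes chosen for a split between ages within both phenotypes have overlapping phenotypes by construction (0 of the 34 had VSH wholly below NVS or wholly above it, where 3.26% and 2.86% of all genes did) and carry that split in the error of this fit. With the age-matched pair as a block, 0 of the 34 were again called, among 127 genes over all, while 2 were lower and 5 higher in VSH at an unadjusted p under 0.05, where 8% and 9.08% of all genes were. The difference of VSH from NVS was positive for 25 of the 34 (49.4% of all genes were) and negative for 9 (50.6%), with a median of 0.11 against -0.0024 over all genes, but the number negative moved between 5 and 18 as single libraries were left out, and was 18 without VSH1. The extremes were LOC726864 at 1.06 ± 0.73 and LOC102655100 at -0.35 ± 0.19 on the log2 scale (SE, n = 4 each), neither of which passed the test (adjusted p = 0.608 and 0.525).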

How the data were processed

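RNA-seq of antennae was available for 4 VSH, 4 NVS, 2 FOR and 3 NUR libraries. As the study's methods and the submitters' processing notes state, the authors aligned stranded reads with TopHat2 (Bowtie2 2.2.3) to assembly 4.5, counted them per NCBI gene with HTSeq and normalised each table on its own (Relative Log Expression in edgeR 3.4.0). The deposited tables used here hold this normalised signal, pseudo-counts of which 0% are whole above 0, with column sums of 19241800 to 20251000 (VSH and NVS) and 33565800 to 34698500 (FOR and NUR). Read depth per library cannot be read from them, so no counting intervals are given and no count test was run.

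Log2(value + 1) was fitted with limma 3.58.1 (R 4.3.3; eBayes with a variance trend) over genes with a summed value of at least 20 (VSH and NVS, 10204 genes) or 15 (FOR and NUR, 10436 genes). Tests were two-sided, p-values were adjusted by Benjamini-Hochberg across each whole fit, and the threshold was 0.05. Fold changes are on the log2(value + 1) scale, and n counts libraries, which pool bees, so that p-values measure the spread between pools. Tables were handled in Python 3.11.15 with pandas 2.3.3, and the fits were tested on simulated data. The VSH and NVS libraries of one number have like ages, and their deviations from the group means correlated by 0.161, 0.215, 0.276 and 0.388 for numbers 1 to 4, so a paired fit was added. Genes named are the 20 with the largest ratio of younger to older, up to 4 from each gene list, those nearest the fold of 1.3 and any past a threshold. The members, the gene lists and the tests were chosen with earlier results of these data known. Names come from the files, the study's gene tables and RefSeq Amel_HAv3.1, which matched 10485 of 13414 genes.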

Additional observations from a re-analysis of the deposited data

Results flagged for a closer look

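A library far from the other 3 of its phenotype was sought in 68 groups of the 34 genes and in 12 groups of summed markers. Chance flags about 1 group in 20 where the values did not choose the group. That rate does not hold for the 68 gene groups, because the rule already set older below younger libraries within each phenotype. No conclusion is drawn from the number of genes flagged. Among the genes, LOC409306 in VSH1 stood apart, with 5769 pseudo-counts against 4322 to 4534 in the other VSH libraries. Among the markers, the summed muscle genes in VSH4 were at 2971, against 394 to 453 in the other VSH libraries, and the summed fat body and haemolymph genes in VSH4 were at 4874, against 1594 to 2002.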

How the results depend on the processing

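The number of genes chosen depended on the rule. It was 34 as reported, 281 with no minimum fold (symbols excluded), 8 with a fold of at least 1.5, 45 and 31 with a minimum mean of 20 and 100, 34 after rescaling to equal totals (30 of them shared) and 50 after quantile normalisation (31 shared). Without 1 of the 8 libraries it was 40 to 67, with 63, 54, 67, 65 and 61 without VSH2, VSH3, VSH4, NVS1 and NVS2. Fewer libraries make a gap easier to meet, but some of the 34 then missed the limit on the mean or the fold. Of the 34, 30, 31, 31 and 32 stayed without VSH1, VSH2, VSH3 and VSH4. Without NVS1, NVS2, NVS3 and NVS4, 31, 28, 25 and 29 stayed.

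Of the 34 genes, 0 were called between foragers and nurses in each setting with all 5 libraries, and 0 to 2 without 1 library, the 2 being dp (-0.78) and LOC726864 (-2.87) without NUR2. In that setting 85 of 10309 genes over all were called. The median difference was -0.64 to -0.36 without 1 library and -0.48 to -0.52 under the other scalings. Numbers 2 and 3 are shared by FOR and NUR libraries, but whether libraries of one number were matched is not known. With the number as a replicate block, NUR1 stood alone in its block and added nothing to the difference. The median was then -0.64, the same as without NUR1, and 0 of the 34 genes were called. At an unadjusted p under 0.05 in limma, 19 of the 34 were lower, against 14 without the block. The share over all genes in that fit was not counted, so no conclusion is drawn from the rise. No call among the 34 changed under the paired fit of VSH and NVS, where 0 were called with and without the replicate block, or in the age contrasts. The sign held for 28 genes in all 13 settings and turned for 6 when 1 library was left out: CYP6AS3 (-0.17 to 0.29, negative without FOR2, at -0.13, and without NUR2), LOC100578017 (-0.28 to 0.046, positive without FOR2), LOC102654200 (-0.68 to 0.82, negative without FOR3 and, at -0.22, without NUR2), LOC102655100 (-0.039 to 0.27, negative without NUR2), LOC102655408 (-0.37 to 0.099, positive without NUR3 and, at 0.051, without FOR2) and LOC727405 (-0.20 to 0.11, positive without NUR3 and, at 0.062 and 0.058, without FOR3 and NUR2). The cause was not tested. In the 18 genes with both forager values below all nurse values, and in LOC102656840, leaving out 1 library could not turn the sign. With 2 forager and 3 nurse libraries, a missed threshold does not show that values were alike.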

Other observations

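The list of 16 heat shock chaperone genes had a higher median age ratio than the 34 genes without any of its genes among them. All 16 had a lower mean in the older libraries, with a median ratio of younger to older of 1.77, but 0 of the 16 separated the ages without overlap.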
